A study of Mus musculus with 12 samples.

Results

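The cGAS-STING axis and its closest partners were examined through 7 genes, chosen by name for their place in the pathway and looked up by symbol among 34678 gene symbols measured in subcutaneous mouse tumors. The 7 members were Mb21d1 (cGAS), Tmem173 (STING), Mavs, Tbk1, Ikbke, Irf3 and Trex1, and all 7 were listed under these symbols and passed the filter on low values that left 15350 symbols for testing. The tumors grew from Lewis lung cancer cells (LLC1, a mouse lung carcinoma line) carrying a short hairpin RNA against Lkb1 (Stk11), implanted under the skin of C57BL/6 mice. Bulk RNA was sequenced from 12 tumors in 4 arms of 3. The arms were vehicle (control immunoglobulin G), palbociclib (an inhibitor of the cell-cycle kinases CDK4 and CDK6), anti-PD-1 (an antibody that blocks an inhibitory receptor on T cells) and the combination of both agents.

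All arms, vehicle included, carried the Lkb1 hairpin, so no tumor with intact Lkb1 was available for comparison and the question of how Lkb1 loss itself sets these genes was not addressed here. Stk11, the gene targeted by the hairpin, was at 10.6, 11.5 and 9.74 FPKM in the vehicle tumors and ranged from 7.90 to 11.4 in the other 9, with all arms overlapping. The share of this level that came from host tissue was not measured. FPKM values are fragment numbers scaled for transcript length and for the mapped fragments of the tumor. Levels of different genes are comparable only roughly, because the counting tool and the annotation behind them are not given in the sources used.

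cGAS is an enzyme that binds double-stranded DNA in the cytosol and makes the second messenger cGAMP. cGAMP binds STING on the endoplasmic reticulum, which moves to the Golgi and recruits the kinase TBK1 or its relative IKKε, and these phosphorylate the transcription factor IRF3 to switch on type I interferon and chemokine genes. MAVS, on mitochondria, joins the RNA sensors RIG-I and MDA5 to the same kinases, while the exonuclease TREX1 removes the DNA that cGAS would sense. Loss of LKB1 in lung cancer cells is known for silencing STING, which is why this axis is of interest in such tumors.

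Markers of the labeled tissue were mixed. Krt8, an epithelial keratin, lay between 62.0 and 276 FPKM in the 12 tumors, whereas the epithelial adhesion genes Epcam and Cdh1 reached at most 1.81 and 2.36 FPKM, and the lung markers Sftpc and Nkx2-1 were at 0 in every tumor. Skeletal muscle genes were high in vehicle replicate 1, palbociclib replicate 3 and combination replicate 2 (summed FPKM of 54.1, 164 and 149.7), against at most 10.03 in the other tumors. Adipocyte genes were high in palbociclib replicate 1 and combination replicate 1 (69.0 and 185), and keratinocyte genes in palbociclib replicate 2 (359.7). Depth was estimated by taking the most frequent product of FPKM and exon length (GENCODE M21) in a tumor as 1 fragment. It was between 14900000 and 20300000 fragments per tumor. The fragment numbers given below rest on the same exon lengths, which may differ from those of the authors.

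A pair of promoter stretches goes with the results that follow. The first lies upstream of Mb21d1, the member with the smallest p for palbociclib minus vehicle, and the other upstream of Ifih1, 1 of 3 RNA sensor genes called higher with palbociclib, shown for its match to the letters below. Both are the 150 bases before the annotated gene start from RefSeq on GRCm38.p6, printed 5′ to 3′ on the minus strand, which is the strand of both genes. Capitals mark the letters GAAANNGAA, the core of an interferon regulatory factor element, on either strand.
Mb21d1 (chr9:78443238-78443387): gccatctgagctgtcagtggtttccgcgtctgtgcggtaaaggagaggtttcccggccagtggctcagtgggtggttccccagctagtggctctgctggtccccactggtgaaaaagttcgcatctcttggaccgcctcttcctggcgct
Ifih1 (chr2:62646256-62646405): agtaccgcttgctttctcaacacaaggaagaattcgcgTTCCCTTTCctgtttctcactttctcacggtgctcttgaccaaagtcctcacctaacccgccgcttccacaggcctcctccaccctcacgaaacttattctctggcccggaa
The Mb21d1 stretch held no such match and the Ifih1 stretch held 1, on the reverse strand. Over the whole windows of 250 bases before to 50 bases after the start, GAAANNGAA was found in 0 of the 6 members with a window (Tmem173 had none in the table used), and in 9.76% of 27025 genes. The letters TTCNNNGAA of a STAT element and GCGGGAA of an E2F core, on both strands, were likewise found in 0 of the 6, against 9.55% and 5.29% of all genes. Of the 7 sensing and interferon target genes called for palbociclib minus vehicle, 5 had a window. GAAANNGAA was found in 2 of them (Ifih1 and Ifi203) and not in Oasl2, Tlr3 or Ifit2. TTCNNNGAA and GCGGGAA were each found in 1 of the 5, which was Ifit2 for both. These are matches of letters only.

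The 7 genes differed in level far more between each other than between arms, as the plot of FPKM per tumor shows. Tbk1 (28.2 FPKM over all tumors) and Tmem173 (28.2) stood at the top, and Tbk1 was the higher of the pair in 7 of 12 tumors, so their order was not fixed. Irf3 (15.7) and Mavs (15.5) came next and also changed places, with Irf3 higher in 6 of 12 tumors. Trex1 (5.41), whose exon bases all belong to another gene, Atrip, as well, was above Ikbke (2.98) in 10 of 12 tumors. Mb21d1 (1.44) was the lowest member in all 12. The adaptor of the DNA-sensing route was thus measured at a level close to that of its kinase, and the sensor at a far lower one. Irf3 and Tbk1 varied least over the 12 tumors (coefficient of variation 9.19% and 9.35%), while Trex1 varied most (62.9%), followed by Mb21d1 (25.6%).

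**Figure D1:**
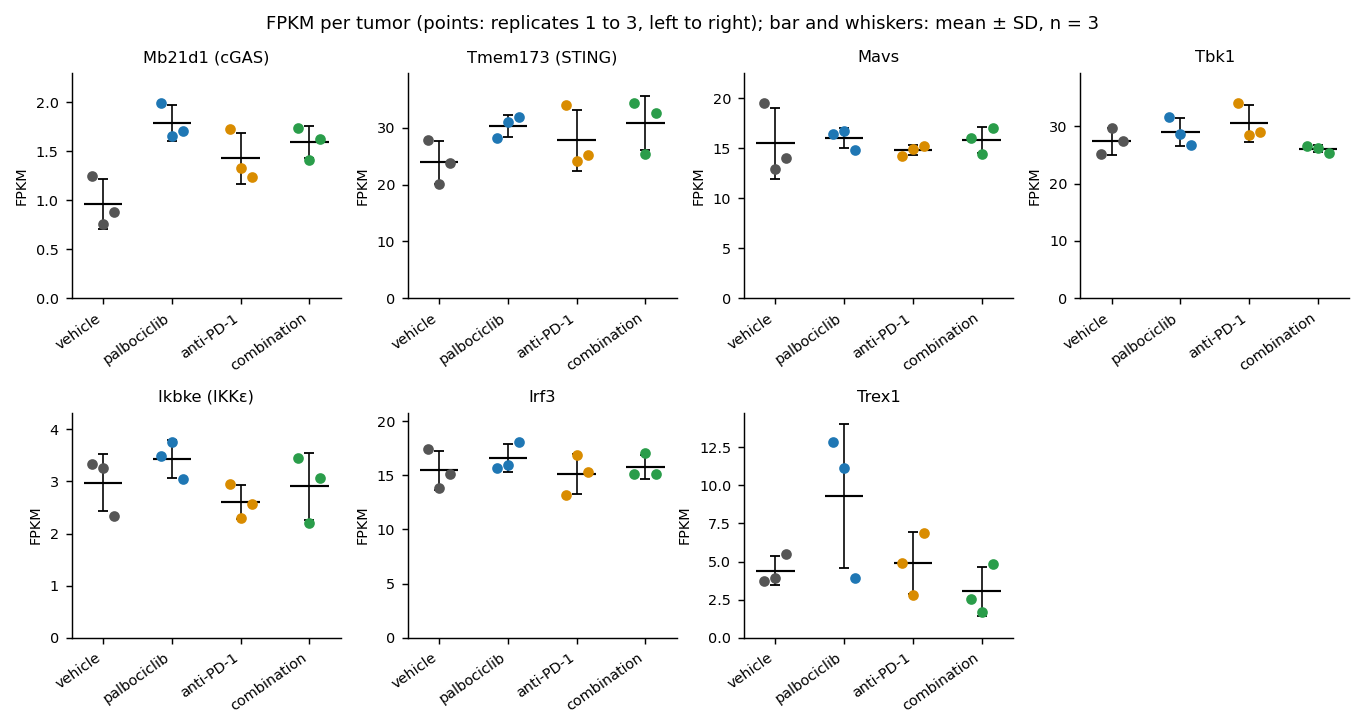
FPKM (vertical axes, from 0) of the 7 members in each of the 12 tumors by arm, with the mean and SD of 3 tumors in black. For Mb21d1 all palbociclib and combination tumors lie above the highest vehicle tumor (1.25 FPKM), and for Trex1 palbociclib replicates 1 and 2 stand apart at 12.9 and 11.2.

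Mb21d1, the DNA sensor, was the member with the smallest unadjusted p for palbociclib minus vehicle (0.00124). It was at 1.25, 0.758 and 0.881 FPKM in vehicle replicates 1 to 3 and at 1.995, 1.654 and 1.702 with palbociclib. It was at 1.73, 1.33 and 1.24 FPKM with anti-PD-1 and at 1.74, 1.41 and 1.63 with the combination. Every palbociclib and every combination tumor was above every vehicle tumor, whereas the lowest anti-PD-1 tumor lay just under the highest vehicle tumor. The difference of palbociclib minus vehicle was 0.85 in log2(FPKM + 0.1) (SE 0.20, 95% interval 0.41 to 1.28, 1.801-fold), with an adjusted p of 0.13 from limma with Benjamini-Hochberg adjustment over all tested symbols. Combination minus vehicle was 0.70 (SE 0.20, 95% interval 0.26 to 1.13, adjusted p = 0.189 from limma) and anti-PD-1 minus vehicle was 0.54 (SE 0.20, 95% interval 0.11 to 0.97, adjusted p = 0.58 from limma). None of these passed the threshold of 0.05, and the 3 differences share the same vehicle tumors.

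The palbociclib effect, the mean of palbociclib minus vehicle and combination minus anti-PD-1, was 0.50 for Mb21d1 (SE 0.14, 1.42-fold), with an adjusted p of 0.11 from limma. It passed the threshold without vehicle replicate 1 (0.59, adjusted p = 0.0374) and without anti-PD-1 replicate 1 (0.57, adjusted p = 0.0483), and over all alternatives the adjusted p ran from 0.0374 to 0.256. The interaction, the palbociclib difference with anti-PD-1 minus that without it, was −0.69 (SE 0.28, 95% interval −1.31 to −0.08, adjusted p = 0.866 from limma). Mb21d1 rested on an estimated 48 to 136 fragments per tumor. Of its exon bases, 4.87% lie opposite the pseudogene Gm8093, and whether the authors' counting used strand is not stated in the sources used here.

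Tmem173 encodes STING. It was at 27.8, 20.1 and 23.8 FPKM in the vehicle tumors and at 28.2, 31.0 and 31.8 with palbociclib. With anti-PD-1 it was at 34.0, 24.1 and 25.3 FPKM, and with the combination at 34.4, 25.4 and 32.6. The palbociclib tumors all lay above the vehicle tumors, by a narrow margin at the lower end, whereas 2 of 3 anti-PD-1 tumors and 1 of 3 combination tumors were inside the vehicle range. Palbociclib minus vehicle was 0.35 on the log2 scale (SE 0.16, 95% interval −0.01 to 0.72, adjusted p = 0.369 from limma) and combination minus vehicle was 0.37 (SE 0.16, 95% interval 0.00491 to 0.73, adjusted p = 0.29 from limma). STING transcripts were among the upper part of all tested symbols in level (percentile 88.8). In bulk tumors, more cells of a type that expresses a gene and more of its RNA per cell cannot be told apart.

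Mavs, the mitochondrial adaptor of the RNA sensors, showed no separation of arms. It was at 19.6, 12.9 and 14.01 FPKM with vehicle, 16.4, 16.7 and 14.9 with palbociclib, 14.3, 14.9 and 15.2 with anti-PD-1 and 16.05, 14.4 and 17 with the combination. Vehicle replicate 1 was the highest of the 12 tumors and vehicle replicate 2 the lowest. Palbociclib minus vehicle was 0.07 on the log2 scale, with a 95% interval of −0.24 to 0.37, and combination minus vehicle 0.05, with an interval of −0.26 to 0.36.

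The kinases were likewise not called in any comparison. Tbk1 was at 25.1, 29.7 and 27.3 FPKM with vehicle, 31.6, 28.6 and 26.8 with palbociclib, 34.1, 28.4 and 28.9 with anti-PD-1 and 26.6, 26.2 and 25.4 with the combination. The vehicle tumors overlapped every other arm. Combination minus anti-PD-1 was −0.22 on the log2 scale (SE 0.10, 95% interval −0.44 to 0.00235, adjusted p = 0.428 from limma) and the interaction was −0.30 (SE 0.14, adjusted p = 0.866 from limma). Krt8 was at −0.97 for combination minus anti-PD-1 (SE 0.32, adjusted p = 0.337 from limma). Palbociclib minus vehicle was 0.08, with an interval of −0.14 to 0.31.

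Ikbke encodes IKKε, the kinase related to TBK1. It was at 3.33, 3.25 and 2.34 FPKM with vehicle and 3.49, 3.76 and 3.04 with palbociclib, against 2.95, 2.30 and 2.58 with anti-PD-1 and 3.46, 2.20 and 3.07 with the combination. Each treated arm overlapped the vehicle tumors. Palbociclib minus vehicle was 0.21 on the log2 scale (95% interval −0.21 to 0.63) and anti-PD-1 minus vehicle −0.17 (95% interval −0.60 to 0.25), both with an adjusted p above the threshold (0.608 and 0.817, limma).

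Irf3, the transcription factor at the end of the chain, was nearly level. It was at 17.4, 13.8 and 15.1 FPKM with vehicle, 15.7, 15.95 and 18.1 with palbociclib, 13.2, 16.8 and 15.3 with anti-PD-1 and 15.1, 17.1 and 15.1 with the combination. All 4 arms overlapped. Palbociclib minus vehicle was 0.10 on the log2 scale (95% interval −0.16 to 0.37), which leaves room for changes of up to about that size. IRF3 is controlled by phosphorylation, which RNA levels do not measure.

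Trex1, the DNA exonuclease, had the widest spread. It was at 3.75, 3.94 and 5.49 FPKM with vehicle and at 12.9, 11.2 and 3.95 with palbociclib. It was at 4.94, 2.81 and 6.89 FPKM with anti-PD-1 and at 2.57, 1.69 and 4.85 with the combination. Palbociclib replicates 1 and 2 stood above all the other tumors, while palbociclib replicate 3 was inside the vehicle range. Palbociclib minus vehicle was 0.92 on the log2 scale (SE 0.48, 95% interval −0.14 to 1.99, adjusted p = 0.406 from limma). Combination minus palbociclib was −1.55 (SE 0.48, 95% interval −2.61 to −0.48, unadjusted p = 0.00838, adjusted p = 0.976 from limma), and the interaction was −1.63 (SE 0.68, adjusted p = 0.866 from limma). All 1147 exon bases of Trex1 also belong to Atrip, a checkpoint gene on the same strand, so reads of the pair cannot be told apart by position. Atrip ranged from 0.499 to 2.78 FPKM over the tumors and was at 1.503, 0.704 and 0.623 in palbociclib replicates 1 to 3.

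Counted over the members, 0 of 7 passed the adjusted threshold of 0.05 in any of the 7 comparisons made with limma. The share of all 15350 tested symbols that passed was also low. It was 0.143% for palbociclib minus vehicle, 0% for anti-PD-1 minus vehicle, 0.013% for combination minus vehicle, 0.00651% for combination minus palbociclib, 0.00651% for combination minus anti-PD-1, 0.313% for the palbociclib effect and 0% for the interaction. At an unadjusted p under 0.05, 1 member was higher for palbociclib minus vehicle (Mb21d1), against 13.8% of all tested symbols in either direction, and 2 were higher for combination minus vehicle (Mb21d1 and Tmem173), against 17%. The count was 1 higher for anti-PD-1 minus vehicle (Mb21d1), against 8.4%, 1 higher for the palbociclib effect (Mb21d1), against 20.5%, and 0 for combination minus anti-PD-1, against 11.8%. It was 1 lower for combination minus palbociclib (Trex1), against 4.52%, and 2 lower for the interaction (Mb21d1 and Trex1), against 5.73%.

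Counted by overlap of the arms, every palbociclib tumor was above every vehicle tumor for 2 of 7 members (Mb21d1 and Tmem173), against 12.9% of all tested symbols. This held for 0 of 7 with anti-PD-1, against 4.25%, and for 1 of 7 with the combination (Mb21d1), against 10.8%. No member had all tumors of a treated arm below vehicle, a direction for which the share of all tested symbols was not counted. The median difference over the 7 members was 0.21 on the log2 scale for palbociclib minus vehicle, beside 0.07 over all tested symbols, and 0.03 for combination minus vehicle, beside 0.03. The plot of differences with their intervals shows that the intervals of Mavs, Irf3 and Tbk1 were narrow and those of Trex1 wide.

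**Figure D2:**
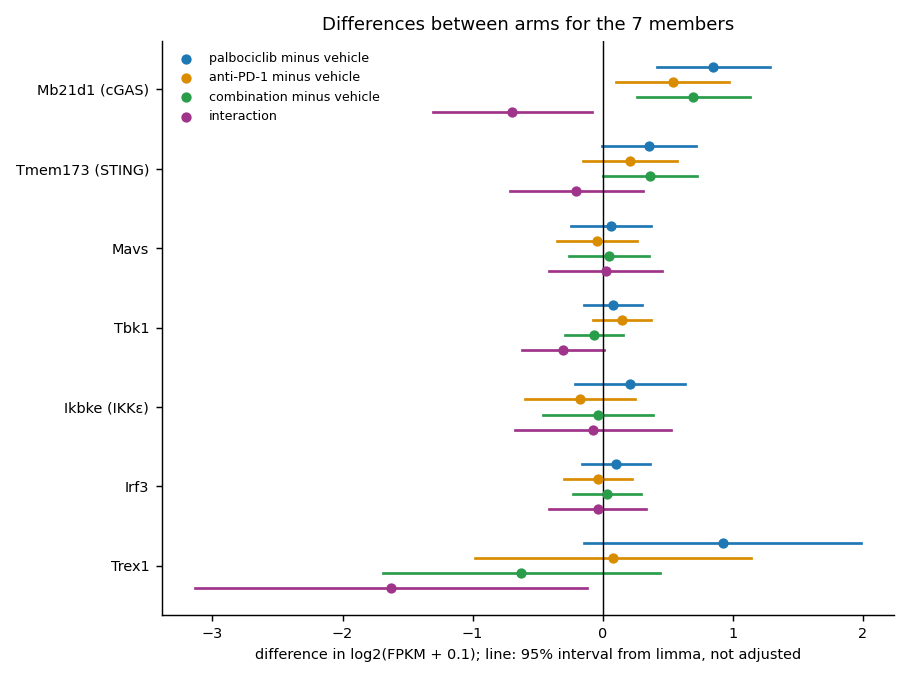
Differences in log2(FPKM + 0.1) for the 7 members (points) with 95% intervals from limma (lines) for each treatment minus vehicle and for the interaction. Mb21d1 lies right of 0 for all 3 treatments, from 0.54 to 0.85, and its interaction of −0.69 and that of Trex1 (−1.63) lie left of 0, with no adjusted p under 0.05.

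The members did not move as 1 block over the tumors. As a description over 12 tumors, which share arms, depth and tissue makeup, log2 levels of Tmem173 and Mb21d1 had a Pearson r of 0.844, the highest of the member pairs. Tbk1 and Irf3 had an r of −0.631, the lowest. The remaining pairs lay between −0.431 (Tbk1 and Mavs) and 0.496 (Ikbke and Trex1).

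Marker genes of other cells moved with some members. The summed FPKM of 5 pan-leukocyte genes was 51.4 to 81.3 with vehicle, 89.9 to 127.7 with palbociclib, 46.6 to 81.1 with anti-PD-1 and 57.0 to 127.3 with the combination, with none of the 5 at 0 in every tumor. The summed FPKM of 6 proliferation genes was 175.5 to 227.7 with vehicle, 242 to 250.8 with palbociclib, 212 to 300.8 with anti-PD-1 and 257 to 272 with the combination. As a description over the 12 tumors, Tmem173 had an r of 0.802 with the pan-leukocyte sum, 0.817 with that of 7 T-cell genes and 0.841 with proliferation. Mb21d1 had an r of 0.853 with proliferation, 0.700 with T-cell, 0.652 with adipocyte and 0.645 with pan-leukocyte genes. Ikbke had an r of 0.802 with pan-leukocyte, 0.786 with macrophage and 0.817 with dendritic cell genes. The sum of 6 neutrophil genes went the other way, with an r of −0.670 for Ikbke, −0.570 for Tmem173 and −0.578 for Mb21d1. That sum was 31.7 to 538.9 with vehicle, 15.3 to 33.2 with palbociclib, 47.5 to 276.3 with anti-PD-1 and 14.2 to 88.8 with the combination. The part of leukocytes or of dividing cells in the differences of Tmem173, Mb21d1 and Ikbke was not tested. Tbk1 had an r of 0.797 with the sum of 6 lung epithelial genes and −0.628 with that of 7 fibroblast genes, and Irf3 had an r of 0.661 with fibroblast genes. The lung epithelial sum, nearly all of it Krt8, was 84.3 to 153 with vehicle, 109.8 to 147.6 with palbociclib, 122 to 281.5 with anti-PD-1 and 68.9 to 98.01 with the combination, with Sftpc and Nkx2-1 at 0. The fibroblast sum was 298.5 to 467 with vehicle, 249.7 to 476 with palbociclib, 163 to 286 with anti-PD-1 and 222 to 387 with the combination, with none of the 7 at 0 in every tumor. The part of either in the values of Tbk1 and Irf3 was not tested.

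**Figure D3:**
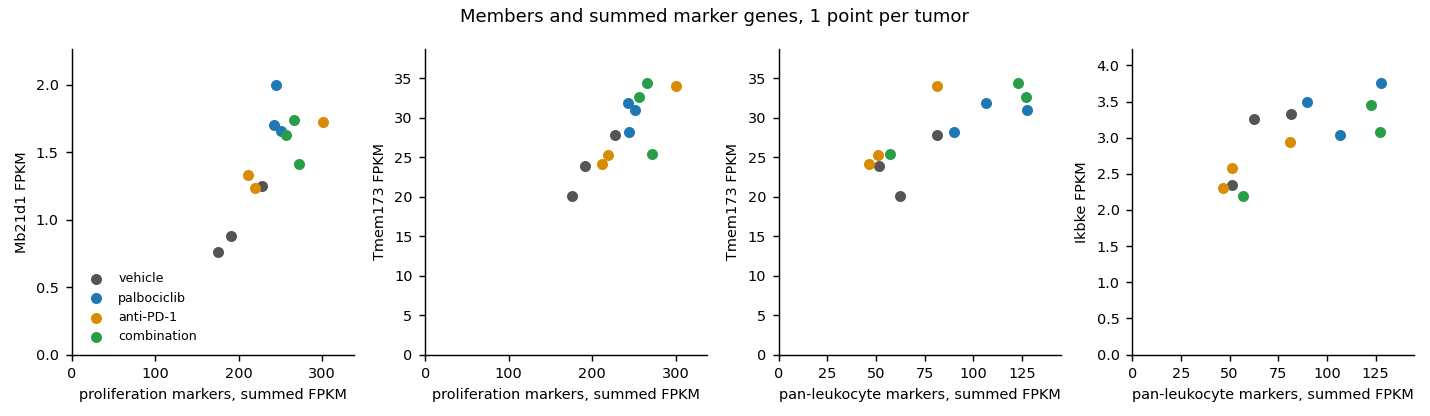
FPKM of Mb21d1, Tmem173 and Ikbke (vertical axes) against the summed FPKM of proliferation or pan-leukocyte marker genes (horizontal axes), 1 point per tumor and colored by arm. Vehicle tumors lie toward the low end of proliferation (175.5 to 227.7) and overlap the anti-PD-1 tumors (211.8 to 300.8). Tumors with more RNA of the pan-leukocyte markers tend to lie higher for Tmem173 and Ikbke.

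The genes whose log2 levels followed each member most closely over the 12 tumors, were sought among 11187 symbols whose mean FPKM was 1 or more. For Tmem173 they were Fanci (r = 0.972), a DNA repair gene, Pnp (0.945) and Tmem171 (0.942). For Mb21d1 they were Slc12a7 (0.966), Ubox5 (0.937) and Ly6c2 (0.934), and for Ikbke Xist (0.956), Pmaip1 (0.949) and Cc2d1a (0.945). For Tbk1 they were Eps8l2 (0.927), Mta3 (0.924) and Mcoln1 (0.923), and for Mavs Fbxo46 (0.928), Dot1l (0.894) and Rxra (0.892). For Trex1 they were Arl8b (0.894), Dync1h1 (0.870) and Eps8 (0.848), and for Irf3 Slc39a3 (0.880), Ppp1r35 (0.877) and 1110034G24Rik (0.875). These values are a description, picked as the highest of many.

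Beyond the members, 131 other genes of nucleic acid sensing in 11 lists were followed, of which 121 were tested. For palbociclib minus vehicle, 7 of the 121 rose and 0 fell (limma, adjusted p 0.0382 to 0.0386), and these were 7 of the 22 symbols called overall. They were 3 cytosolic RNA sensor genes (Ifih1, Dhx58 and Oasl2), 1 DNA sensor gene (Ifi203), 1 endosomal sensor (Tlr3) and 2 interferon target genes (Ifit2 and Rtp4). None of the 121 passed the threshold for anti-PD-1 minus vehicle, combination minus vehicle, combination minus either agent, or the interaction. At an unadjusted p under 0.05, 48 of the 121 were higher and 3 lower for palbociclib minus vehicle, against 13.8% of all tested symbols in either direction. For the palbociclib effect, 50 were higher and 2 lower, against 20.5%. There were 8 and 4 for anti-PD-1 minus vehicle, against 8.4%, and 22 and 5 for combination minus vehicle, against 17%. The counts were 9 and 2 for combination minus anti-PD-1, against 11.8%. They were 1 and 32 for combination minus palbociclib, against 4.52%, and 2 and 34 for the interaction, against 5.73%.

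Ifih1, which encodes the RNA sensor MDA5 that signals through MAVS, was at 1.34, 1.38 and 1.27 FPKM with vehicle and 3.67, 3.14 and 4.13 with palbociclib. It was at 2.33, 1.44 and 1.58 FPKM with anti-PD-1 and 2.42, 1.90 and 2.38 with the combination, so that the palbociclib tumors stood above all the others. Its difference of palbociclib minus vehicle was 1.39 (SE 0.19, 2.61-fold), its palbociclib effect 0.86 and its interaction −1.06 (adjusted p = 0.736, limma). Dhx58, which encodes the related helicase LGP2, was at 3.75, 4.11 and 4.24 FPKM with vehicle, 11.2, 8.46 and 13.7 with palbociclib and 5.79, 5.41 and 5.84 with the combination. Tlr3, an endosomal receptor for double-stranded RNA, was at 2.14, 1.71 and 1.90 FPKM with vehicle, 4.02, 3.57 and 4.36 with palbociclib and 3.18, 2.89 and 3.23 with the combination. With anti-PD-1, Dhx58 was at 7.25, 4.02 and 4.66 FPKM and Tlr3 at 2.96, 1.96 and 2.48. In all 3 genes the combination tumors lay between the vehicle and the palbociclib tumors, and their range overlapped that of anti-PD-1 alone. Oasl2, an OAS-like gene, Ifi203, a gene of the DNA-binding PYHIN family, and the interferon target genes Ifit2 and Rtp4 had palbociclib minus vehicle differences of 1.49, 1.29, 1.24 and 1.25.

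**Figure D4:**
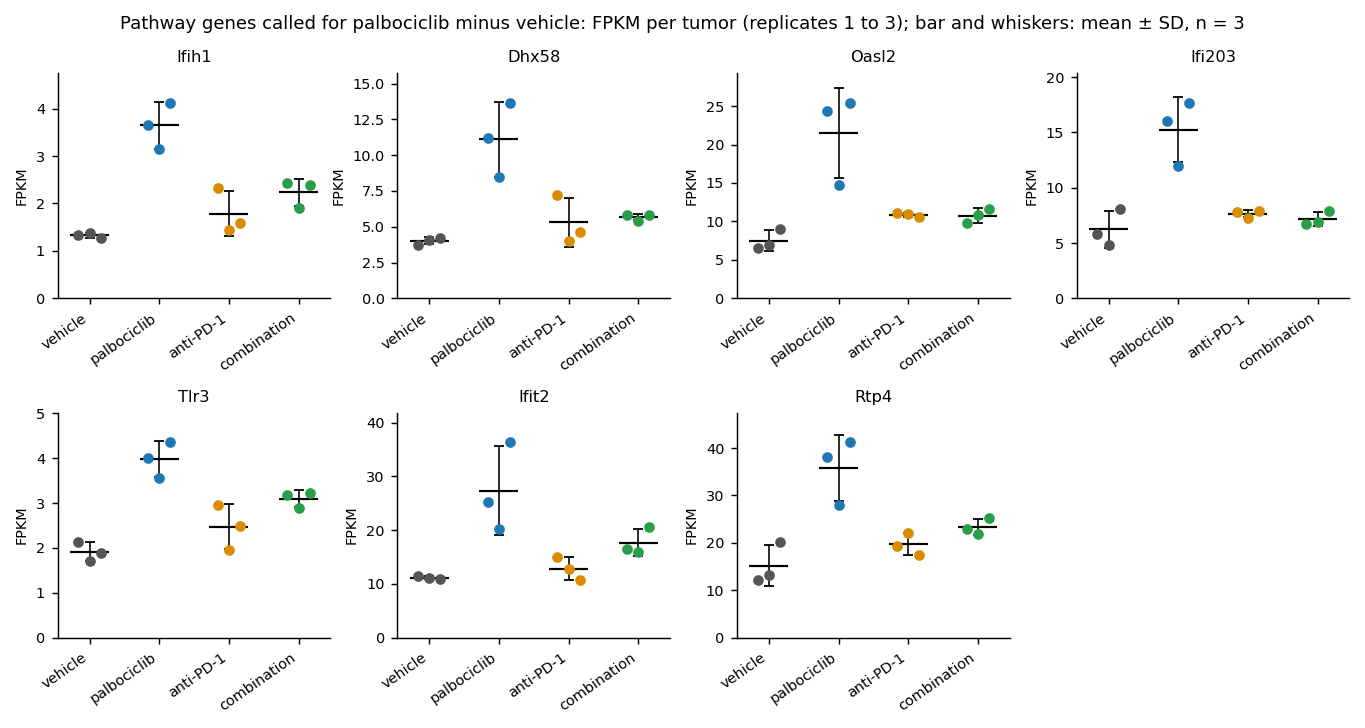
FPKM (vertical axes, from 0) of the 7 sensing and interferon-related genes called for palbociclib minus vehicle, per tumor and arm, with mean and SD of 3 tumors. Palbociclib tumors lie above vehicle tumors in each panel, for example 3.14 to 4.13 against 1.27 to 1.38 FPKM for Ifih1.

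For the palbociclib effect, which uses all 12 tumors, 4 of the 121 genes rose and 0 fell, of 48 symbols called overall. Among them were Ifih1 (0.86), Tlr3 (0.68) and Ifit2 (0.85), each with an adjusted p of 0.0399 from limma. Ifit2 was at 11.5, 11.1 and 10.9 FPKM with vehicle, 25.2, 20.3 and 36.4 with palbociclib, 14.98, 12.7 and 10.7 with anti-PD-1 and 16.4, 16.02 and 20.6 with the combination. Its combination tumors were all above the vehicle and the anti-PD-1 tumors, and they overlapped the palbociclib tumors.

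These calls lay close to the threshold, and their number changed when single tumors were left out. Anti-PD-1 and combination tumors enter palbociclib minus vehicle only through the spread shared by all arms. Leaving out any of them kept the difference as it was, for example 1.385 for Ifih1 without anti-PD-1 replicate 2 (adjusted p = 0.0513, limma). For palbociclib minus vehicle, 8 of the 12 fits that left out a tumor called none of the 121 genes (without vehicle replicates 1 or 2, palbociclib replicates 1 or 3, anti-PD-1 replicates 2 or 3, or combination replicates 1 or 3). The other fits called 3 without vehicle replicate 3, 9 without combination replicate 2, 10 without anti-PD-1 replicate 1 and 20 without palbociclib replicate 2. For the palbociclib effect, 7 of the 12 fits called none (without vehicle replicate 2, palbociclib replicates 1 or 3, anti-PD-1 replicates 2 or 3, or combination replicates 1 or 3), and 26 were called without anti-PD-1 replicate 1, 18 without vehicle replicate 1, 13 without combination replicate 2, 2 without palbociclib replicate 2 and 1 without vehicle replicate 3. The differences themselves kept their sign in every alternative run, with 0.99 to 1.49 for Ifih1 and 0.77 to 1.095 for Tlr3 in palbociclib minus vehicle.

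By list, the largest medians for palbociclib minus vehicle were those of the interferon target genes and the RNA sensors, as the plot of the lists shows. The median log2 difference was 1.12 over 13 cytosolic RNA sensors and 1.39 over 15 interferon target genes, beside 0.07 over all tested symbols. In both lists every tested gene had a positive difference (13 of 13 and 15 of 15, against 59.1% of all tested symbols). Medians were 0.69 for 10 transcription factors, 0.60 for 9 endosomal sensors, 0.36 for 12 nucleases and related genes and 0.33 for 15 other DNA sensors. Among these, Samhd1, whose enzyme breaks down free deoxynucleotides, had a difference of 0.90 (adjusted p = 0.151, limma). Zbp1, a sensor of Z-form nucleic acids, was at 1.92 (adjusted p = 0.116, limma). Irf7, an interferon-inducible transcription factor, was at 1.56 (adjusted p = 0.0691, limma) and Tlr9, the endosomal DNA receptor, at 2.20 (adjusted p = 0.204, limma). Oas3, an oligoadenylate synthetase gene, was at 1.75 (adjusted p = 0.0568, limma), and the PYHIN genes Mndal and Pyhin1 at 1.26 and 1.81. The interferon target genes Ifit3, Mx1 and Cxcl10, the last a T-cell chemokine, were at 1.92, 1.88 and 1.71 (adjusted p = 0.0691, 0.0773 and 0.0688, limma). Unc93b1, which carries endosomal receptors to their place, was at 0.81, the endolysosomal exonuclease genes Pld3 and Pld4 at 0.47 and 1.38, and the transcription factor gene Irf5 at 1.09, none of them past the threshold. The pan-leukocyte sum was also above the vehicle range in every palbociclib tumor, and its part in the sensor and interferon target genes was not tested.

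The lists nearest to STING and its kinases lay near the median of all symbols. The median of palbociclib minus vehicle was 0.03 over 15 STING regulators and trafficking genes, 0.02 over 11 partners of the kinases, −0.10 over 7 cGAMP transport and breakdown genes and −0.00287 over 10 chromatin genes, among them the DNA methyltransferases and the histone methyltransferase Ezh2, that are known for silencing STING. In the first of these lists, Usp18, itself an interferon target, was at 1.52 (adjusted p = 0.141, limma), and Rnf5, a ubiquitin ligase that acts on STING, at 0.31 (adjusted p = 0.354, limma), while the cargo receptor gene Tmed2 was at −0.03. Tank and Optn, adaptors of TBK1, were at 0.01 and 0.28, and Traf6 at −0.20. Of the chromatin genes, Uhrf1 was at 0.20, Kdm5a at −0.46 and Kdm5b at −0.69 (adjusted p = 0.426, 0.398 and 0.332, limma). Of the cGAMP genes, Abcc1, an exporter, was at −0.32, Lrrc8c, a channel subunit, at −0.45 and P2rx7 at 0.25.

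**Figure D5:**
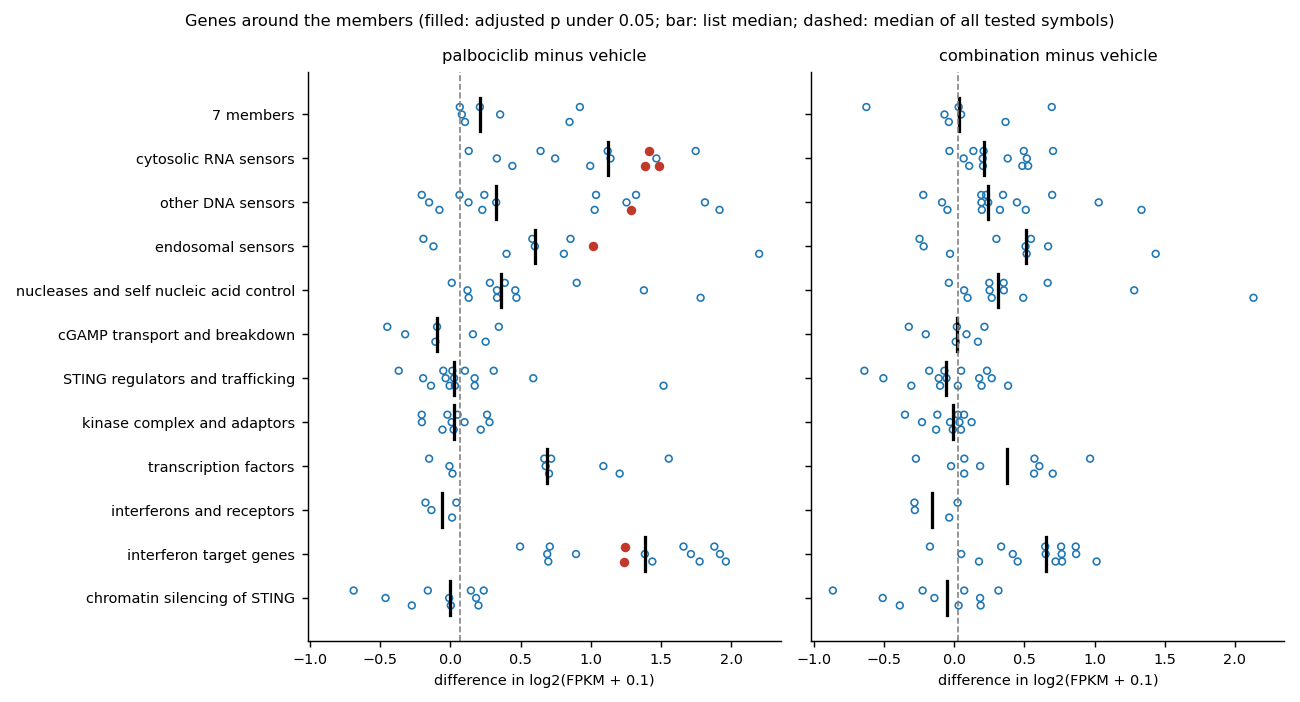
Differences in log2(FPKM + 0.1) of each tested gene (circles, filled red where the adjusted p was under 0.05) by list, for palbociclib minus vehicle (left) and combination minus vehicle (right), with list medians (bars) and the median of all tested symbols (dashed). Medians of the RNA sensors and interferon target genes are 1.12 and 1.39 on the left and 0.21 and 0.65 on the right.

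With the combination, the medians of these lists were smaller. The median of combination minus vehicle was 0.21 over the RNA sensors and 0.65 over the interferon target genes, beside 0.03 over all tested symbols, and with anti-PD-1 alone it was 0.36 and 0.43, beside −0.03. The median interaction was −1.06 over the RNA sensors and −1.34 over the interferon target genes, beside −0.01, and 0 of these genes passed the adjusted threshold. At an unadjusted p under 0.05, 11 of 13 RNA sensors and 10 of 15 interferon target genes had a lower interaction and 0 of either list a higher one, against 5.73% of all tested symbols in either direction. The interferon genes that were looked up were close to absent, and others, Ifng among them, were not in the lists. Of 8 type I and type III interferon genes, Ifna2, Ifnk, Ifnl2 and Ifnl3 were listed at 0 in all 12 tumors, and Ifnb1, the classic target of IRF3, was above 0 in 5 of 12 tumors with a highest value of 0.241 FPKM, an estimated 10 fragments in all. Ifnar1, a subunit of the receptor for type I interferons, was at −0.18 for palbociclib minus vehicle (adjusted p = 0.489, limma), and the receptor kinases Tyk2 and Jak1 at 0.04 and −0.14.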

How the data were processed

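The 12 deposited tables give FPKM per gene symbol and tumor, as computed by the authors. HISAT2 and GRCm38 (mm10) are named in the submitters' processing notes, and the counting tool, the annotation and any use of strand are not given in the sources used here. Of 34745 entries, 67 repeated a symbol, of which the one highest on average was used. Symbols with a mean FPKM of at least 0.1 (15350 of 22912 above 0) were tested on log2(FPKM + 0.1), so changes of low genes are understated, with limma 3.58.1 in R 4.3.3 (1 mean per arm, no covariate, eBayes with a trend, Benjamini-Hochberg adjustment over all tested symbols, threshold 0.05). The fit was tested on simulated data. Gene models came from GENCODE M21 on GRCm38 (94.4% of symbols matched, Mb21d1 as Cgas), and promoter windows from RefSeq. Figures were drawn with matplotlib 3.10.9 in Python 3.11.15.

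The members and the gene lists were chosen with earlier results of these data known. Genes named were the members, Stk11, the list genes called in any comparison or among the 3 with the largest palbociclib effect at a mean FPKM of at least 1, and the 3 symbols most like each member. Atrip and the tissue markers serve as context. Labels number the tumors of each arm but do not say that a number marks a shared animal, litter or day. If tumors of an arm are not from separate mice, p-values measure only the spread between these samples. Alternatives for the members were listed at the start, and the same alternatives for the lists were added after the data were seen. A result on 1 list gene is not reported here.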

Additional observations from a re-analysis of the deposited data

How the results depend on the processing

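No member was called for any comparison under the alternatives of pseudocount, filter, scaling, moderation, replicate block or arms in the fit. The count of called members for the palbociclib effect ran from 0 to 1 over fits that left out 1 tumor, the 1 being Mb21d1. Over all tested symbols the palbociclib effect gave 48 calls, 11 with any FPKM above 0 as the filter, 0 without a trend, and 0 to 758 leaving out 1 tumor (758 without anti-PD-1 replicate 1, 692 without vehicle replicate 1, 264 without combination replicate 2). For the sensing lists, the 7 calls of palbociclib minus vehicle became 0 with quantile normalization, 1 without a trend, 0 with only the 2 arms in the fit, and 0 to 20 leaving out 1 tumor. The 4 calls of the palbociclib effect became 8 at a mean FPKM of at least 1, 0 with any FPKM above 0, 7 after rescaling to TPM, 0 without a trend, and 0 to 26 leaving out 1 tumor. Leaving out 1 tumor gave 0 to 1 list call for combination minus palbociclib, combination minus anti-PD-1 and the interaction. Causes of these shifts were not tested.

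Pairing of tumors by replicate number was uneven. The deviations of same-numbered tumors from the arm means had an r of −0.213 to 0.453 over 18 pairs, 7 of them above 0.1, and 6 of 12 tumors were closest to one of their own number. All 3 vehicle and anti-PD-1 pairs were above 0.1 (0.128 to 0.453), which held for no other pair of arms, so the block was kept as an alternative. For anti-PD-1 minus vehicle it left 0 members and 0 list genes called. With the replicate number as a block, the palbociclib effect gave 129 calls over all symbols and 12 in the lists, palbociclib minus vehicle gave 13 in the lists, and 0 members were called (0 list genes in the other 5 comparisons).

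Small differences changed sign. After rescaling to TPM, Irf3 (−0.0299) and Mavs (−0.0121) reversed for combination minus vehicle and Tmem173 (−0.0419) for combination minus palbociclib, and with quantile normalization Irf3 (−0.0106) and Tmem173 (−0.00277) did so. Leaving out 1 tumor, anti-PD-1 minus vehicle ran from −0.116 to 0.0601 for Irf3, −0.21 to 0.42 for Trex1 and −0.16 to 0.14 for Mavs. Palbociclib minus vehicle ran from −0.0516 to 0.246 for Mavs. Combination minus vehicle ran from −0.20 to 0.14 for Ikbke, −0.0449 to 0.12 for Irf3 and −0.069 to 0.229 for Mavs. Combination minus palbociclib ran from −0.0743 to 0.144 for Tmem173 and −0.0706 to 0.0479 for Mavs, and combination minus anti-PD-1 from −0.0283 to 0.148 for Irf3. The palbociclib effect ran from −0.0876 to 0.372 for Trex1, and the interaction from −0.16 to 0.14 for Mavs, −0.133 to 0.0437 for Irf3 and −0.21 to 0.11 for Ikbke. The lowest r among the 3 genes most like a member became 0.896 for Tmem173, 0.911 for Ikbke and 0.498 for Mavs with quantile normalization, and ran from 0.887 to 0.945 for Mb21d1, 0.862 to 0.929 for Tbk1, 0.800 to 0.895 for Irf3 and 0.790 to 0.913 for Mavs leaving out 1 tumor. Tbk1 with the combination became 25.4 FPKM after rescaling. Low genes are limited by depth, as for Mb21d1 with 48 to 136 fragments per tumor and Trex1 with 33 to 239.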
